A study of Mus musculus with 33 samples.

Results

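One library of colon CD4 T cells that lacked Foxp3 and carried little CD44 at their surface was set against the 16 regulatory T cell (Treg) libraries from mice without tumours. These 17 libraries were taken by their labels from the 33 of the series, with no measured value used in the choice. The single library was sorted from the colon as CD45+TCR+CD4+Foxp3-CD44low and is called the naive T cell library here. The other 16 were sorted as CD45+TCR+CD4+Foxp3+ and split into 4 gates by 2 cytokine receptors: TSLPR, encoded by Crlf2, and ST2, encoded by Il1rl1. Every combination of the presence or absence of the 2 receptors gave a gate, from TSLPR-ST2- to TSLPR+ST2+, and each gate was taken from the same 4 mice.

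All animals in the comparison had the genotype Foxp3-yfp B6, a reporter strain in which cells that transcribe Foxp3 fluoresce, and the cancer status naive, which here means without tumours. Ages in the series ran from 7 to 12 weeks, and the sources used here give no treatment of the tumour-free mice. Each library came from 200 sorted cells, amplified as full-length cDNA and sequenced as 58-base single reads. The naive T cell library carries a mouse label of its own, and the series' design counts 1 mouse for that population, so cell type, mouse and library cannot be told apart in any difference below. With 1 library on one side, no p value is given for it; genes are described by whether they lay outside the whole range of the 16 Treg libraries and by how far.

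A naive T cell has left the thymus but has not yet met its antigen. It keeps a program led by the transcription factors Tcf7, Lef1, Satb1 and Klf2, it recirculates through lymph nodes with the help of Ccr7 and S1pr1, and it stays low in CD44. Treg are CD4 T cells that restrain other immune cells; the transcription factor Foxp3 holds their identity together, and they are known for high CD25 (Il2ra), CTLA-4 and Ikzf2 (Helios). Treg in the colon include recirculating cells close to the lymph node type and tissue-resident effector cells, many of which carry ST2.

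Depth did not set the naive T cell library apart. It held 7022068 counts, between the lowest (4910225) and the highest (8839946) of the Treg libraries, whose median was 6685050. It had the fewest genes with at least 1 count, 15175, against 15366 to 16845 in the Treg libraries. Mitochondrial genes took 1.15% of its counts and 0.616% to 1.28% of those of the Treg libraries. All levels below are counts per 1000000 (CPM) of TMM-scaled library totals. The naive T cell value carries, in parentheses, an exact Poisson 95% interval that covers counting error only, and Treg values are given as lowest, median and highest of 16.

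The genes used in the sort followed the labels. Foxp3 (chrX:7573644-7595245, GRCm38) had 2 counts in the naive T cell library, which is 0.279 CPM (0.0338 to 1.01), against 107, 163 and 219 CPM in the Treg libraries. The ratio to the Treg median was 583, with a counting interval of 161 to 4813. Cd44, the surface receptor for hyaluronan, stood at 13.4 CPM (10.9 to 16.4) against 28.4, 79.1 and 190. Cd4 (425 CPM) and Cd3e (741 CPM) lay inside the Treg ranges of 244 to 764 and 531 to 1042. Il1rl1 had no count in the naive T cell library, which allows up to 0.419 CPM at 3 counts, while Treg ran from 0 to 310 with a median of 55.8. The lowest Treg value was thus also 0, and Il1rl1 was not called. Without mouse 4 it was called lower (-5.82 on the log2 scale), so the remaining Treg libraries, ST2- gates included, all held counts. Crlf2, at 14.2 CPM, was also inside the Treg range of 8.65 to 57.4.

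Of 12542 measured genes, those with at least 10 counts in the naive T cell library or a Treg median of at least 10 counts, 9826 lay inside the Treg range. Above all 16 Treg libraries were 1394 genes, and below all 16 were 1322. A gene was called higher or lower where it lay outside the range and also differed from the Treg median at least 2-fold on the log2(CPM + 1) scale. This gave 631 higher genes (5.03% of those measured) and 833 lower genes (6.64%). The lower side reached further: 212 lower and 41 higher genes differed 8-fold or more, and 135 lower and 23 higher genes were separated from the nearest Treg library by a gap of 4-fold or more. Of the lower genes, 166 had no count in the naive T cell library; of the higher genes, 23 had no count in any Treg library. Protein-coding genes made up 754 of the lower and 389 of the higher genes. The median difference over all measured genes was 0.01 on the log2 scale.

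**Figure D1:**
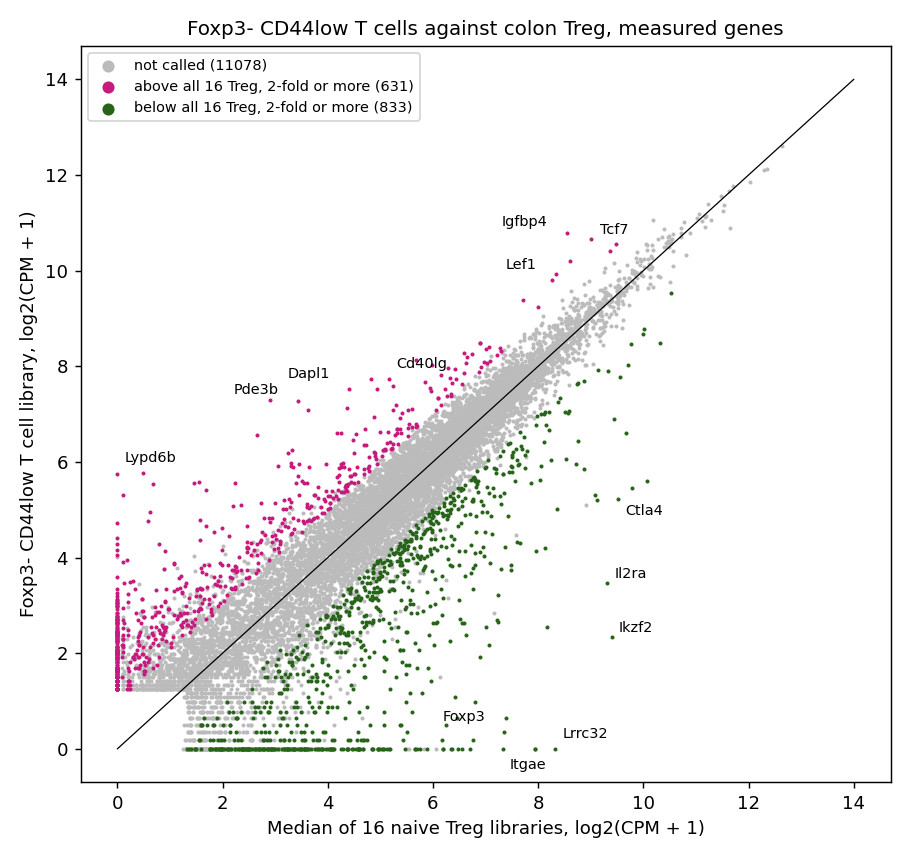
Each point is 1 of the 12542 measured genes, with the median of the 16 Treg libraries on the x axis and the naive T cell library on the y axis, both as log2(CPM + 1); the line marks equal levels. The 631 called higher lie above the line and the 833 called lower lie below it, with Ikzf2, Il2ra, Foxp3, Itgae and Lrrc32 among the points farthest down.

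Among the 20 gene lists, the naive and central T cell list had the largest share of genes called higher. Of 32 listed genes, all measured, 11 were called higher, 0 lower and 21 were not called, with a median difference of 0.70 on the log2 scale. The share called higher was 34.4%, beside 5.03% of all measured genes. This list and those below were chosen with earlier results of these data known, so such shares describe the lists and test nothing. At 4-fold from the median 5 were higher, and against the 4 TSLPR-ST2- libraries alone 8 were higher and 1, Bcl2, lower. The regulators are described first, then the genes of recirculation and survival.

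Tcf7, which encodes the transcription factor TCF-1 needed for T cell memory and self-renewal, stood at 1608 CPM (1579 to 1638) in the naive T cell library against 270, 509 and 780 in Treg. It was 3.16-fold above the Treg median and 2.06-fold above the highest Treg library. Lef1, its close relative that binds the same DNA motif, stood at 975 CPM (952 to 998) against 235, 322 and 473, 3.03-fold above the median. Satb1, a chromatin organiser of T cell development, stood at 1179 CPM (1154 to 1205) against 241, 389 and 695. These 3 regulators were called higher, so by the rule for a call no Treg library of any gate reached the naive T cell level. Counted against the 4 TSLPR-ST2- libraries alone, Satb1 was still above all of them but by less than 2-fold (0.92 on the log2 scale).

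The largest differences in the list belonged to less familiar genes. Dapl1 (chr2:59484653-59505020), a gene of quiescent naive cells, stood at 183 CPM (173 to 193) against 1.12, 20.1 and 39.2, 9.09-fold above the median and 4.66-fold above the highest Treg library. Als2cl stood at 211 CPM against 6.59, 27.5 and 67.4, and Amigo2, a cell adhesion protein, at 138 CPM against 4.54, 19.5 and 49.8. Igfbp4, which encodes a secreted binding protein for insulin-like growth factors, stood at 1757 CPM (1727 to 1788) against 228, 374 and 623, 4.70-fold above the median. Rflnb, a partner of the filamin cytoskeleton, was 5.20-fold above its Treg median, and Actn1, an actin crosslinker, 2.60-fold. In all 6 of these genes the gap to the nearest Treg library was larger than the counting interval of the naive T cell value. Pik3ip1, an inhibitor of PI3 kinase, was 2.09-fold above the Treg median (268 against 129 CPM), and its difference was 0.91 on the log2 scale, no longer a call, without the 4 TSLPR+ST2+ libraries.

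Recirculation genes divided. Ccr7, the receptor that guides T cells into lymph nodes, stood at 1504 CPM (1476 to 1533) against 350, 714 and 1059 and was called, at 2.11-fold above the median and 1.42-fold above the highest Treg library. Against the TSLPR-ST2- gate alone its difference was 0.65 on the log2 scale. S1pr1, the exit receptor of lymph nodes, was at 1005 CPM, inside the Treg range of 412 to 1068. The remaining genes of this paragraph were chosen after their values were seen. Klf2, which drives S1pr1, was at 378 CPM inside 252 to 594, and Il7r, the survival cytokine receptor of resting T cells, at 430 CPM inside 138 to 507. Bcl2, which blocks cell death, was at 262 CPM, below the Treg median of 471 and inside the range of 161 to 825. It became a lower call against the TSLPR-ST2- gate alone (-1.55 on the log2 scale) and without the 4 TSLPR+ST2+ libraries (-1.01). Ly6c1 was at 379 CPM inside 65.9 to 614. Mean Klf2 was 530 ± 49.5 CPM in the TSLPR-ST2- gate and 527 ± 29.2 where ST2 alone was present, both above the naive T cell library. It was 289 ± 38.2 and 287 ± 18.9 in the 2 TSLPR+ gates, both below it (SD, n = 4). By the same measure Bcl2 was 734 ± 109 CPM in TSLPR-ST2- Treg, and 193 ± 34.7 in TSLPR+ST2+ Treg.

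**Figure D2:**
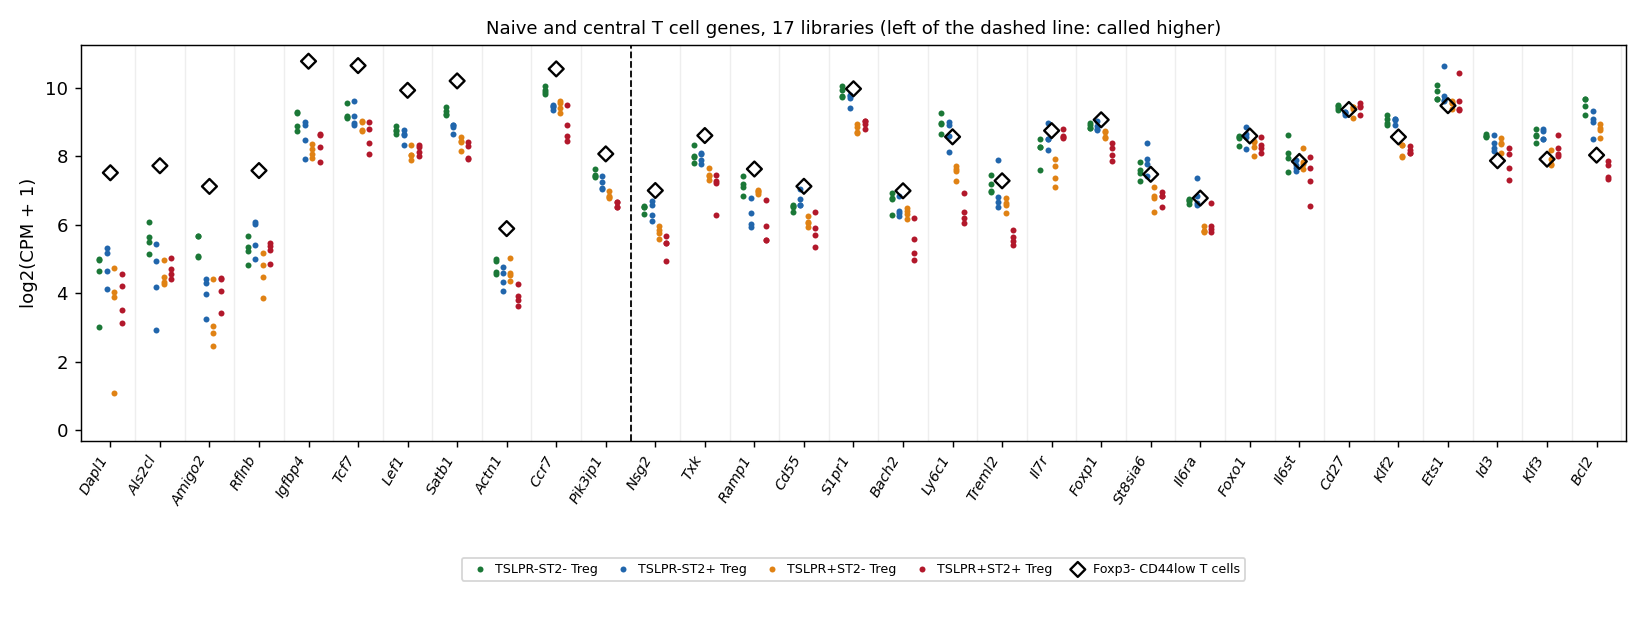
Levels of 31 naive and central T cell genes as log2(CPM + 1) on the y axis; dots are the 16 Treg libraries coloured by gate, diamonds the naive T cell library, and the dashed line separates the 11 genes called higher (left) from 20 not called. Dapl1, Als2cl, Amigo2 and Igfbp4 stand well clear of every Treg library, while Klf2 and Bcl2 fall among or below the TSLPR- Treg.

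Promoter sequence was available for 27 of these 32 genes, in 41 annotated start windows of 250 bases before the start (RefSeq, GRCm38.p6). The windows were searched on both strands for CTTTGA, the core bound by TCF-1 and Lef1, and for GTAAACA, the core bound by Foxo and other forkhead factors. CTTTGA was present in 12.2% of the 41 windows and in 13.8% of all 32851 windows, and GTAAACA in 2.44% and 3.17%. CACCC, a core bound by Klf factors, was present in 73.2% of them, in 73.7% of 19 windows of the Treg core genes described below and in 52.0% of all. A match describes letters and not binding. The windows below hold every match of the first and second motif in a gene called higher; capitals mark the motif, which in Lef1 reads on the opposite strand as TCAAAG. Both Lef1 matches lie 180 and 120 bases before a start inside the gene's span of chr3:131110471-131224356, and the Dapl1 match lies 164 bases before its start.
Lef1, chr3:131156089-131156144, plus strand: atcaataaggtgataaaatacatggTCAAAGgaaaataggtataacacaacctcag
Lef1, chr3:131156149-131156204, plus strand: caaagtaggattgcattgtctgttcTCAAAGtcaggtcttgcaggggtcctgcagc
Dapl1, chr2:59484464-59484520, plus strand: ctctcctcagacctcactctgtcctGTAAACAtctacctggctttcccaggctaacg

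Outside that list, the higher genes with the widest gap to any Treg library included a phosphodiesterase, a fatty acid elongase and signalling receptors. Of 11 measured phosphodiesterases, a family picked after its values were seen, the other 10 were not called. Pde3b (chr7:114415281-114539251), a phosphodiesterase that breaks down cAMP, stood at 153 CPM (144 to 163) against 1.27, 9.86 and 20.2, which is 15.5-fold above the Treg median and 7.57-fold above the highest library. P4ha2, a subunit of the collagen prolyl hydroxylase, had 120 counts (16.7 CPM) and no count in any Treg library, at least 594-fold higher against a floor of 3 counts over the 16 Treg libraries together. P4ha2 was measured through the naive T cell library alone. It was no longer called where a mean of at least 10 counts over the 17 libraries was required. Its neighbour Pdlim4, an actin-linked adaptor, stood at 155 CPM against 0, 6.47 and 30.5. Elovl7, a fatty acid elongase, was at 25.5 CPM against a highest Treg value of 3.62. Slc16a5, a monocarboxylate transporter, stood at 93.9 CPM against 0, 5.30 and 16.4. Lypd6b was at 53.6 CPM against 0, 0.397 and 7.82. All 6 were called higher, which by its rule requires a level above every Treg library.

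Receptors and membrane proteins followed in that ranking. Cd40lg, the CD40 ligand with which helper T cells license B cells and dendritic cells, stood at 213 CPM (203 to 224) against 19.8, 34.96 and 48.9. It was 6.10-fold above the Treg median and 4.37-fold above the highest library. Tgfbr3, a coreceptor for TGF-beta, stood at 71.4 CPM against 2.90, 8.51 and 14.6, and Vipr1, the receptor for vasoactive intestinal peptide, at 135 CPM against 2.54, 11.3 and 34.2. Il1rl2, the receptor for IL-36, stood at 30.0 CPM against 0, 0.536 and 8.97; it is the gene next to Il1rl1 on chromosome 1, where the naive T cell library had no count. Rnf32, Ggt5, Cnga1, Hid1, Arhgap29, Myo10, Rgmb and Phxr4 completed the 20 genes with the widest gap, with Als2cl and Dapl1. For each of these 8 the naive T cell level was 3.30 to 5.67-fold above the highest Treg library, and no Treg library exceeded 19.9 CPM.

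Treg core genes were lower almost without exception. Of 22 listed genes 21 were called lower and 0 higher, beside 6.64% of all measured genes, with a median difference of -4.11 on the log2 scale. The one gene not called was Nr4a1, an immediate early gene of T cell receptor signalling, at 124 CPM against 43.7, 123 and 351. Foxp3 is on this list and was used by the sort. In all 21 lower genes the upper bound of the counting interval lay below the lowest Treg library.

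Lrrc32 (chr7:98489283-98502181), which encodes GARP, the anchor of latent TGF-beta on Treg, had no count in the naive T cell library against 180, 319 and 570 CPM, at least 763-fold lower than the Treg median. Ikzf2 stood at 4.05 CPM (2.71 to 5.81) against 408, 673 and 847, 166-fold lower, and its relative Ikzf4 (Eos), a Foxp3 partner, at 19.1 CPM against 150, 192 and 311. Entpd1 (CD39), which begins the breakdown of extracellular ATP, had no count against 30.7, 71.8 and 135 CPM. Nt5e (CD73), which completes the path to adenosine, stood at 35.9 CPM against 242, 558 and 835. So the first enzyme of the adenosine pathway was not detected at this depth and the second was 15.6-fold lower.

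The IL-2 receptor divided by subunit. Il2ra, the high-affinity chain CD25, stood at 10.0 CPM (7.86 to 12.7) against 436, 636 and 911, 63.3-fold lower than the median. Il2rb stood at 42.8 CPM against 711, 884 and 1497, 20.6-fold lower. Il2rg, the chain shared with other cytokine receptors, was at 615 CPM inside 501 to 657. Cish and Socs2, which STAT5 induces downstream of IL-2, stood at 16.5 and 5.44 CPM against Treg medians of 248 and 148, and both were called lower.

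Costimulatory receptors of the TNF and CD28 families were often lower. Of 17 measured genes 9 (52.9%) were called lower and 1 (5.88%) higher, beside 6.64% and 5.03% of all measured genes, with a median of -1.78. Tnfrsf4 (OX40) stood at 47.6 CPM against 658, 1069 and 1739, Tnfrsf9 (4-1BB) at 31.4 against 102, 327 and 640, and Tnfrsf18 (GITR) at 85.4 against 317, 431 and 604. Ctla4, the inhibitory receptor that strips CD80 and CD86 from antigen-presenting cells, stood at 36.4 CPM (32.1 to 41.1) against 469, 734 and 1143, 20.2-fold lower. Icos stood at 218 CPM against 359, 752 and 1686; against the TSLPR-ST2- gate alone the difference was -0.79 on the log2 scale, under 2-fold. Cd28 itself (576 CPM) and Cd27 (661 CPM) lay inside the Treg ranges of 375 to 580 and 559 to 750. Cd40lg was the higher gene of the group.

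**Figure D3:**
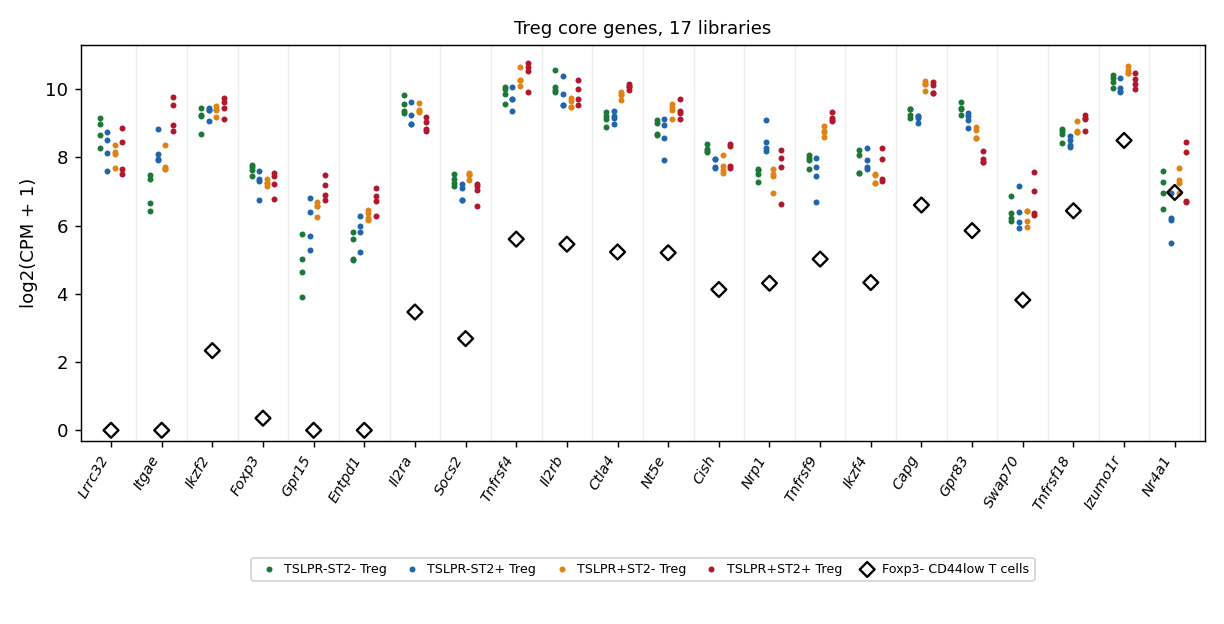
Levels of the 22 Treg core genes as log2(CPM + 1) on the y axis; dots are the 16 Treg libraries coloured by gate and diamonds the naive T cell library. In 21 genes the diamond lies below every dot, and in Nr4a1 it lies among them.

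Genes of effector and tissue-resident Treg were also on the lower side, with more overlap. Of 25 measured of 27 listed genes 14 (56.0%, beside 6.64% of all) were called lower and 0 higher. One of the 14 is Cd44, which the sort selected to be low. The median difference was -2.95 on the log2 scale, and -3.85 with genes lacking counts set at their bound. Maf, a driver of IL-10 and of colon Treg, stood at 15.3 CPM (12.6 to 18.5) against 48.2, 124 and 214. Rora stood at 5.16 CPM against 49.2, 93.0 and 187, and Ahr, the sensor of dietary and microbial ligands, had 2 counts (0.279 CPM) against 3.47, 44.5 and 104. The ratio of the Treg median to the Ahr value was 159, with a counting interval of 44.1 to 1316. Tigit, an inhibitory receptor, stood at 1.12 CPM (0.482 to 2.20) against 9.40, 85.0 and 208. Gata3 was nearer, at 38.1 CPM against 57.4, 88.4 and 208.

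Among the 11 effector genes that were not called, several had no count in the naive T cell library but also none in at least 1 Treg library. Klrg1, a marker of terminal effector cells, was at 0 against 0, 44.3 and 550 CPM, Gzmb at 0 against 0, 65.9 and 869, and Il10 at 0 against 0, 45.9 and 86.8. Irf4, at 79.0 CPM, and Id2, at 127 CPM, lay inside the Treg ranges of 26.4 to 123 and 35.8 to 287. In bulk libraries such as these, fewer cells of a type and less RNA per cell cannot be told apart.

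RNA levels of homing receptors were often lower in the naive T cell library, and no migration was measured. Of 27 measured of 29 listed genes 14 (51.9%, beside 6.64% of all) were called lower and 1, Ccr7, higher, with a median of -1.70 (-1.75 with bounds). Cd44, used by the sort, is again one of the 14. Itgae (CD103), which binds E-cadherin on epithelium, had no count against 85.0, 244 and 879 CPM, at least 582-fold lower. Gpr15, a colon homing receptor, had no count against 14.02, 88.5 and 178 CPM. Ccr6, the receptor for CCL20, had no count against 21.4, 81.4 and 185 CPM. Ccr2 stood at 2.79 CPM against 29.1, 118 and 220, Ccr4 at 5.16 against 42.6, 95.6 and 184, and Cxcr3 at 7.67 against 31.99, 89.6 and 261. Itgb8, with which Treg activate latent TGF-beta, had no count against 3.90, 27.7 and 69.5 CPM, and its partner Itgav stood at 15.3 CPM against 34.9, 53.9 and 76.4.

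Other trafficking receptors were inside the Treg range or nearer to it. Itgb7, the shared beta chain of the gut integrins, was at 1126 CPM inside 921 to 1795, and Selplg, an adhesion ligand of leukocytes, at 1360 CPM inside 1306 to 1782. Itga4, chosen after its value was seen as the partner of Itgb7, was at 149 CPM, below the lowest Treg library (161) but less than 2-fold from the median of 220. Ccr9, a receptor of small intestinal homing, was called lower at 20.0 CPM against 31.4, 61.6 and 152. Ccr8 was called lower too, but the upper bound of its counting interval reached the lowest Treg library, so this call rests on few counts.

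**Figure D4:**
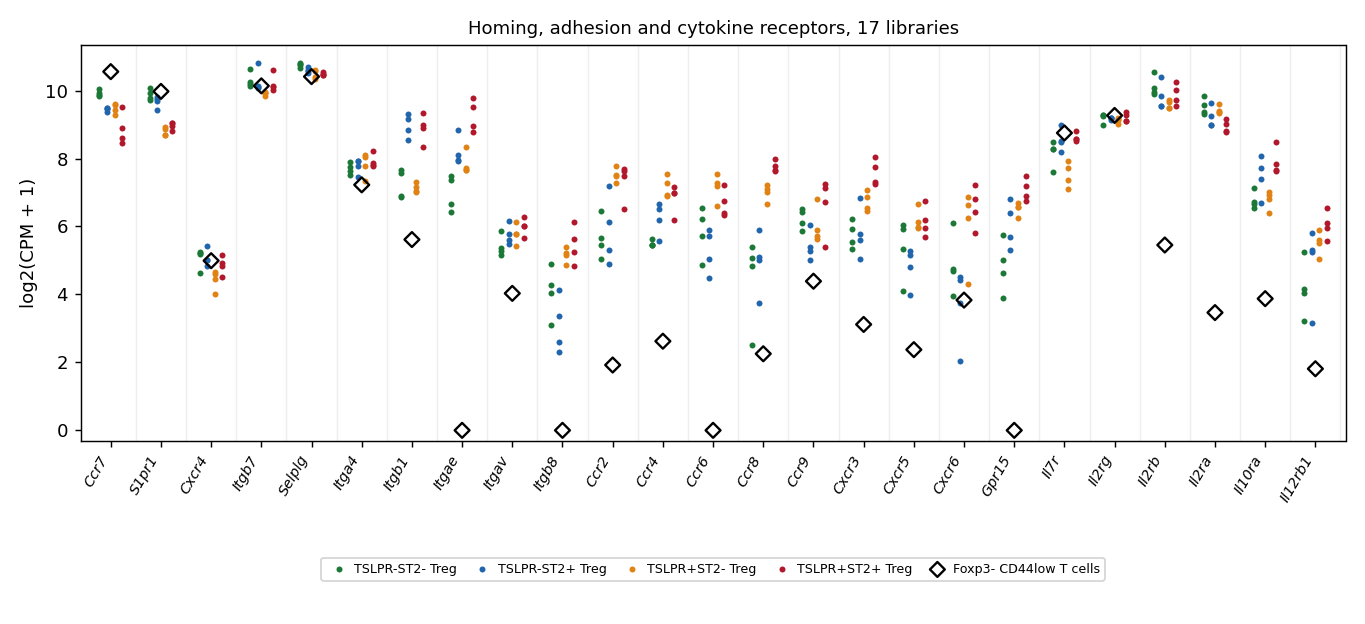
Levels of 25 homing, adhesion and cytokine receptor genes as log2(CPM + 1) on the y axis; dots are the 16 Treg libraries coloured by gate and diamonds the naive T cell library. Ccr7 lies above every Treg library, Itgb7, Selplg, Il7r and Il2rg lie among them, and Itgae, Gpr15, Ccr6 and Itgb8 lie at 0.

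Of cytokine receptors, IL-2 receptor chains included, 24 of 26 listed genes were measured. Of these 5 (20.8%, beside 6.64% of all) were lower, 0 higher and 19 not called, with a median of -0.38. Besides Il2ra and Il2rb the lower genes were Il10ra, Il12rb1 and Tgfbr1. Il10ra, the signalling chain of the IL-10 receptor, stood at 13.7 CPM (11.1 to 16.7) against 83.3, 134 and 355. Il12rb1, shared by the IL-12 and IL-23 receptors, stood at 2.51 CPM against 7.96, 41.7 and 92.0. Tgfbr1 was 2.17-fold below the Treg median, and without the 4 TSLPR+ST2+ libraries its difference was -0.97 on the log2 scale, no longer a call. Ifngr1 was at 264 CPM, below the lowest Treg library at 401, but its difference from the median was -0.99 on the log2 scale, so it was not called.

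Of 27 genes of T cell receptor signalling 25 were not called, with a median of 0.16. The other 2 (7.41%, beside 5.03% of all) were both higher. One was Themis, a signalling adaptor of thymocyte selection, at 259 CPM (248 to 271) against 30.7, 62.6 and 90.8, 4.15-fold above the median. Trac, Cd3g and Lck, at 1494, 1179 and 2081 CPM, were each less than 2-fold from their Treg medians. Trac and Lck nevertheless lay above the highest Treg libraries, at 1353 and 1979 CPM, and Cd3g was inside its range.

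Activation and immediate early genes gave no single direction: of 25 genes 1 was higher, 4 lower and 20 not called, with a median of 0.05, beside 5.03% higher and 6.64% lower of all measured genes. Fos, a subunit of AP-1, stood at 226 CPM (215 to 237) against 31.9, 70.2 and 135. Dusp4 and Dusp5, phosphatases of MAP kinases, Rel, an NF-kappaB subunit, and Tnfaip3, its feedback inhibitor, were the 4 lower genes. Rel stood at 31.1 CPM against 48.6, 80.5 and 109. Junb and Ier2, also immediate early genes, were at 1024 and 435 CPM, above the highest Treg libraries at 884 and 308, but less than 2-fold from the medians.

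Of the helper lineage genes, 11 of 20 were measured; 3 (27.3%, beside 5.03% of all) were higher and 1 (9.09%, beside 6.64%) lower. Besides Cd40lg, Bcl6, the regulator of follicular helper cells, stood at 18.7 CPM (15.7 to 22.1) against 0.590, 4.78 and 15.5. Il2 stood at 4.05 CPM (2.71 to 5.81) against 0, 0.310 and 1.23, a low level from 29 counts. The Il2 call was lost where a mean of at least 10 counts was required, and with a pseudocount of 5 CPM. Il17a, Il22 and Il5 had no count in any of the 17 libraries. Thinned to the smallest library total, Bcl6 was no longer called (1.52 on the log2 scale).

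Proliferation and glycolysis genes included a few that were lower and none that was higher. Of 18 proliferation genes 4 (22.2%, beside 6.64% of all) were lower (median -0.96): Mki67 and Rrm2 had no count against Treg medians of 27.8 and 30.0 CPM, Top2a stood at 4.88 CPM against 8.44, 24.9 and 106, and Mcm6 at 109 against 204, 284 and 520. Pcna, at 126 CPM, and Tubb5, at 284, were at their Treg medians of 125 and 286. Of 16 glycolysis genes 2 (12.5%) were lower, the glucose transporter Slc2a3 at 12.8 CPM against 51.3, 107 and 252 and Hk2 at 0.558 CPM against 1.84, 5.00 and 15.3. Tpi1, Gapdh and Hif1a, chosen after their values were seen, also lay below all Treg libraries, by less than 2-fold from the median (-0.77, -0.35 and -0.85 on the log2 scale). Ldha and Pkm, the last enzymes of the path, were at 1439 and 880 CPM against medians of 1440 and 879. Among 18 interferon response genes 1 (5.56%), Oas1a, was lower and the median difference was 0.04.

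**Figure D5:**
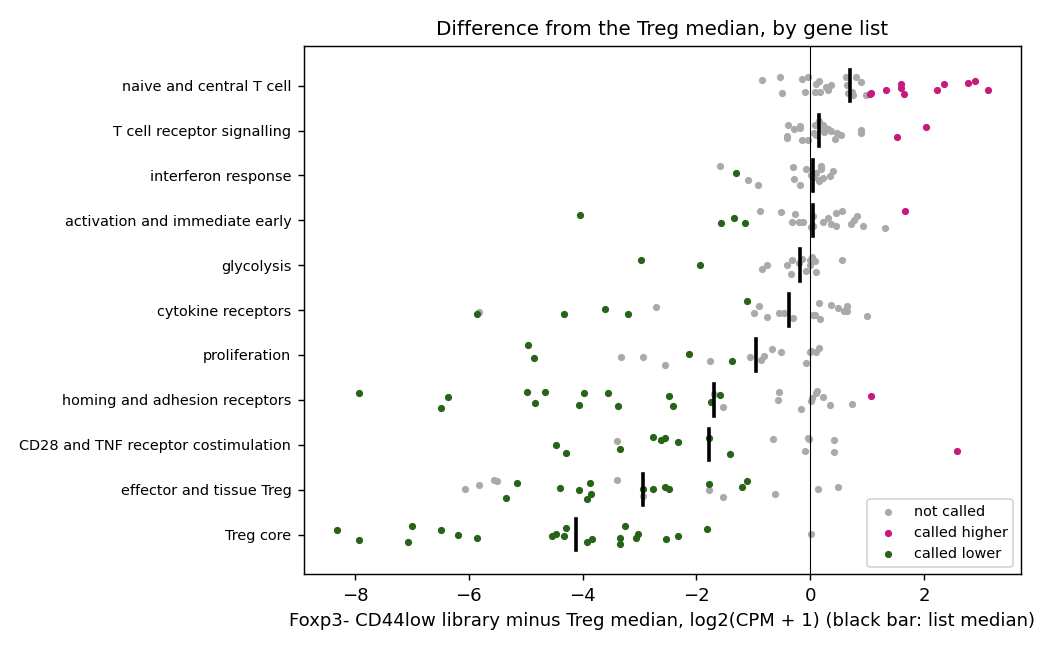
Difference between the naive T cell library and the Treg median, on the log2(CPM + 1) scale on the x axis, for each measured member of 11 gene lists; pink points were called higher, green points lower, grey points neither, and black bars are list medians. The medians run from 0.70 for naive and central T cell genes to -4.11 for Treg core genes, beside 0.01 for all measured genes.

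The lower genes with the widest gap included 13 that are on none of the lists. Cd83, a membrane protein known from dendritic cells and induced on Treg, had no count against 129, 246 and 733 CPM, at least 587-fold lower. Coro2a, an actin-binding coronin, had no count against 92.8, 160 and 252 CPM. Gbp2b, an interferon-inducible GTPase, had no count against 46.8, 80.2 and 203 CPM. Myo1e, a class I myosin, had no count against 31.3, 93.3 and 184 CPM, and Cybb, the catalytic subunit of the phagocyte NADPH oxidase, none against 26.3, 72.3 and 186. Rln3, a relaxin family peptide gene, had 4 counts (0.558 CPM) against 88.5, 165 and 318, and Endod1 had 7 counts (0.977 CPM) against 59.6, 111 and 161. Cd38, an enzyme that consumes NAD, had 1 count against 29.3, 71.4 and 159 CPM, a ratio to the median of 512 with a counting interval of 91.9 to 20220. Ptpn13 and Dhrs3 had no count against Treg medians of 57.8 and 34.7 CPM. Myo1f, Adap1 and Ralgds had 1 count or none. All were called lower, and that call by its rule requires all 16 Treg libraries to lie above the naive T cell value.

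Markers of macrophages, B cells, epithelium and other lymphocytes, which a colon sort could carry, were lower in the naive T cell library than in most Treg libraries, and the stromal list was higher than in most. Summed over 14 macrophage and dendritic cell markers, it held 59.4 CPM against 14.8, 616 and 2670 in Treg, and 3 of the 14 had no count in it. Lyz2, the most abundant of them, stood at 33.5 CPM against 4.07, 482 and 1567. Summed B and plasma cell markers were 7.12 CPM against 33.2, 133 and 463, with Jchain at 0, and epithelial markers were 26.8 CPM against 31.5, 67.7 and 354, with Krt8 and Vil1 at 0. Of the measured markers 1 in each of these 3 lists was called lower: Cd68, Cd79b and Epcam. Markers of CD8, NK and gamma-delta T cells summed to 44.1 CPM against 40.3, 113 and 284, with Nkg7 the lower gene and Ncr1 at 0. The stromal list held 6 of 8 genes without a count in the naive T cell library, and its sum, 233 CPM against 94.5, 160 and 239, above 15 of the 16 Treg libraries, came from Pecam1, which T cells also express. S100a8 and S100a9 of the neutrophil list had no count in it.

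Cybb, Cd83 and Cd68 are also expressed by macrophages or dendritic cells, and the macrophage and dendritic cell sums ran from 1404 to 2220 CPM in the 4 TSLPR+ST2+ libraries. The highest sum of all, 2670 CPM, was in the TSLPR-ST2+ library of mouse 3, which stays in when those 4 are left out. Without those 4 libraries the differences of Cybb, Cd83 and Cd68 from the Treg median were -5.85, -7.80 and -3.19 on the log2 scale. Against the TSLPR-ST2- gate alone, whose sums ran from 14.8 to 163 CPM, they were -5.26, -7.12 and -1.93. Cd68 rests on few counts, since its counting interval reached the Treg range. Of all called genes, 588 of the 631 higher and 798 of the 833 lower were still called without the 4 TSLPR+ST2+ libraries. The counts over all genes were then 684 and 918, over a range that fewer libraries make narrower. Since a narrower range tends to keep calls, the numbers kept say little.

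The naive T cell library lay nearest to the TSLPR-ST2- gate. Over measured genes, its mean Pearson correlation of log2(CPM + 1) was 0.895 with the 4 TSLPR-ST2- libraries, 0.866 with the ST2+ gate without TSLPR, 0.863 with the TSLPR+ gate without ST2 and 0.831 with the double-positive gate. Spearman values had the same order, from 0.919 to 0.863. Treg libraries of different mice correlated at a mean of 0.933 within a gate and 0.915 between gates. These are descriptions across genes, which are not independent, and the naive T cell library also had the lower marker sums given above.

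By list, the gate that mattered depended on the genes. For naive and central T cell genes the median difference from the gate mean was 0.40 against the gate without either receptor, 0.35 with ST2 alone, 1.03 with TSLPR alone and 1.49 with both, on the log2 scale. TSLPR-ST2- was the nearest gate for 18 of the 32 genes. For effector and tissue Treg genes the medians ran -1.56, -2.14, -3.42 and -3.95 in the same order of gates. For Treg core genes they ran only from -4.01 to -4.24.

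Gates were then compared among Treg alone, in the 16 libraries and without the naive T cell library. TSLPR+ was set against TSLPR- Treg and ST2+ against ST2- Treg by edgeR's quasi-likelihood test, with Benjamini-Hochberg adjustment over 13324 genes. The order of the 4 gates was read from the same Treg libraries and was not itself tested. The mouse is the replicate here (n = 4 per gate). Each mouse gave all 4 gates, but the fit behind the p values below held no term for the mouse. Counts from a fit with the mouse as a block are given with the other alternatives. TSLPR+ against TSLPR- Treg had 486 higher (3.65%) and 372 lower genes (2.79%), and ST2+ against ST2- Treg had 145 higher (1.09%) and 58 lower (0.435%). These tests share the Treg libraries with the comparison above, so the values are set side by side and no overlap is drawn from them.

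In TSLPR+ Treg 20 of the 32 naive and central T cell genes fell, beside 2.79% of all genes tested, 0 rose and 12 did not pass. S1pr1 fell by 0.90 on the log2 scale (SE 0.07, adjusted p = 1.96e-06, edgeR). Klf2, Bcl2 and Ly6c1 fell by 0.88, 1.08 and 1.86 (adjusted p = 1.96e-06, 2.91e-05 and 1.96e-06, edgeR). Lef1 and Satb1 fell by 0.56 and 0.79 (adjusted p = 0.000458 and 2.79e-05). Tcf7 and Ccr7 fell by 0.48 and 0.49 (adjusted p = 0.0332 and 0.0183), but the Tcf7 call was lost without mouse 1, 2 or 4 (adjusted p up to 0.214) and the Ccr7 call without mouse 2, 3 or 4 (up to 0.170). Dapl1, Als2cl, Amigo2, Rflnb and Actn1, higher in the naive T cell library, did not pass between these gates (adjusted p = 0.31, 0.324, 0.0602, 0.161 and 0.294).

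Effector genes moved the other way between the same gates. In TSLPR+ Treg 19 of 27 effector and tissue Treg genes rose, beside 3.65% of all genes tested, and 0 fell. Icos rose by 1.32 (SE 0.11, adjusted p = 2.26e-06, edgeR), Maf by 1.37 (SE 0.14, adjusted p = 1.40e-05) and Tigit by 2.44 (SE 0.28, adjusted p = 5.01e-05). Of 22 Treg core genes 9 rose, beside 3.65% of all genes tested, and 1 fell, beside 2.79%. Ctla4 rose by 0.78 (SE 0.07, adjusted p = 4.09e-06, edgeR). Foxp3, Ikzf2, Il2ra and Lrrc32 did not pass (adjusted p = 0.389, 0.361, 0.32 and 0.299, edgeR). Of 18 proliferation genes 11 rose, beside the same 3.65%, with Mki67 up by 1.99 (adjusted p = 0.00182, edgeR).

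Markers of other cells moved with TSLPR too. The 12 macrophage and dendritic cell genes tested had a median of 1.90 on the log2 scale; 0 passed with edgeR, where 10 were higher at an unadjusted p under 0.05, 2 passed with DESeq2 and 5 without mouse 3. Cd79b and Blnk of 11 B cell genes, Epcam of 7 epithelial and Nkg7 of 5 CD8 and NK genes were higher, and Pecam1 of 2 stromal genes was lower. Their part in these results was not tested. Leaving out mouse 1, 2 or 4 lowered the count of TSLPR genes called from 858 to 314, 353 or 325, and leaving out mouse 2 or 4 lowered the effector genes that rose from 19 to 12. Treg core genes that rose numbered 5, 6 or 4 without mouse 1, 2 or 4, and proliferation genes 3 or 4 without mouse 1 or 2.

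The ST2 contrast called fewer genes in all, and its difference from the TSLPR contrast was not tested. In ST2+ Treg 5 of 32 naive and central T cell genes fell, beside 0.435% of all genes tested, and 1, Il7r, rose (by 0.71, adjusted p = 0.0183, edgeR). Of 27 effector genes 10 rose, beside 1.09% of all genes tested, and 0 fell. One of the 10 is Il1rl1, which encodes the ST2 of the sort. Bcl2 fell by 0.85 (SE 0.12, adjusted p = 0.00158), Ly6c1 by 0.72 and Satb1 by 0.36 (adjusted p = 0.0197 and 0.0433). Klf2 and S1pr1 did not pass (adjusted p = 0.955 and 0.898). In the same contrast 6 of 12 macrophage and dendritic cell markers were higher (median 2.86 on the log2 scale), beside 1.09% of all genes tested, and their part was not tested. Leaving out mouse 1, 2, 3 or 4 lowered the 203 ST2 calls to 88, 65, 70 or 50 and the effector genes that rose to 5, 6, 3 or 4. The naive genes that fell numbered 1, 2 or 1 without mouse 2, 3 or 4. Of the genes named here Bcl2 passed with every mouse left out, while Satb1 lost its call with each, Ly6c1 without mouse 2, 3 or 4, and Il7r without mouse 1, 2 or 4.

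T cell receptor V segments describe the breadth of the repertoire in each sort of 200 cells. With at least 10 counts, 50 of 108 annotated Trav segments were seen in the naive T cell library against 31, 42 and 52 in Treg, and 21 of 22 Trbv segments against 15, 19 and 21. The most counted Trav segment, Trav14-2, took 5.54% of Trav counts, where the leading segment of each Treg library took 5.36%, 7.59% and 12.9%. Trbv went the other way. Its most counted segment, Trbv1, took 15.7% of Trbv counts against 11.3%, 13.5% and 16.8%, above 15 of the 16 Treg libraries. Summed Trbv counts reached 1075 CPM of plain library totals against 532, 857 and 966, and summed Trav counts 398 against 238, 318 and 377, both above all Treg libraries. Thinned to equal segment counts, 41 Trav segments were seen against 30, 37.5 and 46, so the number seen lies inside the Treg range at both depths. Reads of near-identical V segments could be assigned to one another in the counting.

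Some of the called genes lie beside each other in the genome. Of 630 higher genes with an annotated position, 141 (22.4%) had another higher gene within 100 kb, as did 16.01% of all 12531 measured genes with a position. For the lower genes the shares were 23.5% and 19.65%. Overlapping genes can share reads; with overlapping neighbours left out the shares were 17.5% and 14.3% for higher genes and 19.4% and 18.3% for lower genes. Igfbp4 (chr11:99041244-99054392) and Ccr7 (chr11:99144196-99155077), both higher, lie on opposite strands with 89804 bases between them. P4ha2 (chr11:54100095-54131665) and Pdlim4 (chr11:54054928-54069014), both higher, are 31081 bases apart. On the lower side Tnfrsf4 and Tnfrsf18 are 9552 bases apart on chromosome 4, and Ctla4 and Icos 62095 bases apart on chromosome 1. The sources used here do not give the strand setting of the counting, and the library kit does not mark strand, so reads of overlapping genes on opposite strands are not separated; Foxp3 shares 31.5% of its exon bases with other annotated genes.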

How the data were processed

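The submitters deposited 1 table of raw read counts for 53465 mouse genes in 33 libraries, and each of its columns matched 1 library. Per the submitters' processing notes, the genome build was GRCm38 and the tools included SAMtools 1.2, FastQC 0.11.3, Picard 1.134 and HTSeq 0.4.1. No aligner, annotation release or strand setting is given in these sources. Symbols and positions came from GENCODE M21 by Ensembl ID (53360 matched). From the deposited counts of 17 libraries, CPM were computed with TMM-scaled totals (edgeR 4.0.16, R 4.3.3) and logged with a pseudocount of 1 CPM. Gene lists (20), tests and alternatives were chosen with earlier results of these data known.

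Named genes are the sort genes, the 20 higher and 20 lower called genes with the widest gap and at least 10 CPM (leaving out unnamed genes, pseudogenes, ribosomal, mitochondrial and receptor segment genes), and from each list up to 8 called members and 4 not called with the highest level. Some genes that this rule picks are left out of the text. Gate contrasts used edgeR's quasi-likelihood test (filterByExpr, robust, limit 0.05); simulated data with known answers were used to test the code. Each Treg mouse gave all 4 gates, so libraries are paired by mouse in the labels. Residuals correlated at a mean of 0.0242 over 24 pairs from the same mouse and -0.00806 over 72 pairs of other mice. Of the same-mouse pairs 3 exceeded 0.1, with a highest value of 0.214. Of the pairs of other mice 0 did, with a highest value of 0.0694. Alternatives were other scalings, filters, pseudocounts and thresholds, thinned libraries, other Treg sets, DESeq2 1.42.0, a mouse block and each mouse left out. Intervals and floors of 3 counts cover counting error only, since amplified reads are not independent molecules.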

Additional observations from a re-analysis of the deposited data

Results flagged for a closer look

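Within 1 gate, 1 library stood apart for 1 gene. In the TSLPR-ST2- Treg, Tcf7 was at 760.93 CPM in mouse 3, while the other 3 mice of that gate lay between 555 and 579 CPM. The gap to the nearest was 0.885 of the whole range of the gate, above Dixon's 95% critical value for 4 samples. This was 1 of 48 checks (12 genes in 4 gates), and chance alone passes this limit in about 1 of 20 groups. The library is still below the naive T cell library at 1608 CPM. Without mouse 3 Tcf7 was called higher as before, which a range over fewer libraries could hardly change.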

How the results depend on the processing

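The 631 higher genes became 372 when a mean of at least 10 counts was required, 297 with a pseudocount of 5 CPM, 193 at 4-fold, 403 where the counting interval had to clear the Treg range, 954 against the TSLPR-ST2- gate alone and 392 against all 32 Treg libraries of the series, cancer included. The 833 lower genes became 407 at 4-fold, 1299 against the TSLPR-ST2- gate alone and 521 against all 32 Treg libraries. With 1 mouse left out the counts ran from 659 to 735 higher and from 930 to 970 lower, the wider numbers following from a range over fewer libraries. Of 113 called genes on the lists or named by gap, all 113 kept their call under plain totals, RLE size factors, a pseudocount of 0.25 CPM, no filter and each mouse left out. Fewer libraries hardly widen the Treg range, and lifting the filter removes no gene. A smaller pseudocount only enlarges a difference. A call kept without a mouse, without the filter or with the smaller pseudocount therefore says little. At 4-fold 89 kept it, against all 32 Treg 102 and against the TSLPR-ST2- gate 105. With a mean of at least 10 counts required 111 kept it, and Il2 and P4ha2 lost it. None changed sign under any alternative run, but most alternatives could not reverse a gene outside all 16 Treg libraries, so this says little. Of the naive list 5 to 12 genes were higher over the alternatives (5 at 4-fold, 8 against the TSLPR-ST2- gate), and of the effector list 11 to 16 were lower, with 1 higher, Id2, against that gate alone (1.22 on the log2 scale). With all 32 Treg the lost calls included Ccr9, Cxcr3, Elovl7, Hk2, Mki67, Nkg7, Oas1a, Pik3ip1, Tnfaip3 and Top2a. DESeq2 called 526 genes for ST2 and 1327 for TSLPR, against 203 and 858 with edgeR; 1 mouse left out gave 50 to 88 and 314 to 945. With the mouse as a block in the paired fit, 192 and 962 genes were called, and the block kept the naive list at 20 lower genes and the effector list at 19 higher genes for TSLPR. Thinning moved the Trav segments seen in the naive T cell library from 50 to 41, by its lower depth. One library on one side limits every statement about naive T cells: counting intervals do not hold the spread between mice, and a gene at 0 could be present at up to 0.419 CPM.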

Other observations

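Other gene families, picked after their values were seen, held calls as well, and since they were picked this way nothing is drawn from their counts beside the 6.64% of all genes called lower. In the Ikaros family 3 of 5 genes, Ikzf2, Ikzf4 and Ikzf3, were lower (Ikzf3 at 57.2 CPM against 126, 215 and 359), while Ikzf1 stood at 217 CPM, above the highest Treg library at 162 but under 2-fold from the median. Of 8 SOCS genes, feedback inhibitors of cytokine signalling, 4 were lower: Socs2, Cish, Socs5 and Socs1. Of 6 measured S100 genes 3 were lower, with S100a4 at 0 against 1.26, 10.9 and 15.6 CPM, S100a6 at 5.30 against 44.2, 150 and 287, and S100a10 at 242 against 369, 559 and 709. Rgs1, a brake on chemokine receptor signalling that marks tissue-resident lymphocytes, stood at 38.4 CPM against 402, 540 and 755, and the other 9 measured RGS genes were not called.

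Gbp2b, Gbp3 and Gbp5 were lower among 10 guanylate-binding proteins, with Gbp4 at 549 CPM inside 424 to 689. Of 5 NF-kappaB subunits Rel and Nfkb2 were lower and Rela, at 312 CPM, was inside 181 to 338. Cathepsins Ctsb, Ctsl and Ctsz were lower of 12 measured. None of 76 measured ribosomal protein genes was called in either direction, with a median difference of 0.11 on the log2 scale.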
